A study of Mus musculus with 13 samples.

Results

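The comparison described here sets SM1 tumours of mice given pmel-1 splenocytes and both dabrafenib and trametinib (3 arrays) against SM1 tumours of mice given pmel-1 splenocytes and vehicle (2 arrays). These 5 arrays, chosen by their sample titles, are part of a series of 13. SM1 is a transplantable melanoma of C57BL/6 mice driven by a mutant Braf, and the tumours of both groups grew in mice into which spleen cells had been transferred. The donors were pmel-1 mice, a strain with a transgenic T cell receptor against gp100, the protein product of Pmel. The labels name no conditioning of the hosts before transfer, and the arrays do not separate host leukocytes from transferred ones. Dabrafenib inhibits the mutant BRAF kinase and trametinib inhibits MEK, the kinase below it. The other 8 arrays are pmel-1 recipients given dabrafenib (2) or trametinib (2) alone, and recipients of C57BL/6 splenocytes given the combination (2) or vehicle (2), called control recipients below. The sources used here give no dose, time, age or sex. They do not say whether the replicates are different mice, and if not, the p-values cover only technical spread.

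In a melanoma with mutant BRAF, ERK is active without growth factor signals, drives its own feedback inhibitors and cell cycle genes, and holds down part of the pigment programme set by the transcription factor MITF. Blocking BRAF and MEK lowers ERK output, and in patients and mice it has been described to raise melanocyte antigens and immune cell entry. T cells that meet their antigen release interferon gamma, which induces guanylate-binding GTPases, the chemokines that bind CXCR3 and the antigen presentation machinery in tumour and host cells alike.

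Values are log2 intensities per probe set, normalised by RMA before deposit. A gene is represented by its brightest probe set, and 13783 genes that read above 5.79 on at least 2 of the 13 arrays were tested with limma over all 13 arrays. A change is a log2 difference, combination minus vehicle, given ± SE, and a gene is said to rise or fall where its p, adjusted by Benjamini-Hochberg over all 13783 genes, is under 0.05. Where every array of a group reads under 5.79 the gene is not well above background there, and its change has no exact size. A gene low in vehicle tumours can pass the filter through drug arrays alone, which favours rises in lists of low genes. Guanylate-binding proteins, MHC chains and other families with close copies can share probe sequence, so which copy is read is uncertain.

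RNA measures differed between the groups before any gene was tested. The log2 ratio of 3′ to 5′ control probe sets, averaged over Gapdh, Actb and Tfrc and called the RNA ratio below, was 1.67, 1.68 and 1.32 in combination tumours, against 0.96 and 0.88 in vehicle tumours. The difference of 0.64 had a 2-sided exact permutation p of 0.1, the smallest that 3 against 2 arrays can give. A higher ratio means relatively less signal far from the 3′ end, as in degraded or differently amplified RNA. The gap came from Gapdh (0.79) and Actb (1.09), while Tfrc differed by 0.04 (exact permutation p = 0.9). In control recipients the same mean ratio was 0.68 and 0.92 in combination tumours and 0.91 and 0.67 in vehicle tumours, so those groups overlapped. In pmel-1 recipients given a single drug it was 1.26 and 1.77 with dabrafenib and 1.73 and 1.37 with trametinib, above both vehicle arrays.

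Among these 5 arrays adipose RNA stood apart on 2. Adipoq, the adipocyte hormone adiponectin, read 5.47, 10.05 and 7.54 in combination tumours, against 5.50 and 4.75 in vehicle tumours. Car3, a carbonic anhydrase abundant in fat, read 6.65, 11.63 and 9.03 in combination tumours, against 5.55 and 5.31 in vehicle tumours. Combination replicate 2 was highest for both and replicate 3 next, while replicate 1 was near the vehicle arrays for Adipoq. Of 10 adipocyte genes tested, 1 rose, the lipoprotein lipase gene Lpl (2.13 ± 0.61), which macrophages also express. Its groups did not overlap, but it lost its call without combination replicate 2 or vehicle replicate 2 (1.69 to 1.74, adjusted p of 0.053 to 0.13) and with the RNA ratio in the model (0.37, adjusted p = 0.78). The median change of the list was 0.67, and its mean level was 6.45, 8.22 and 6.96 in combination tumours, against 6.39 and 6.28 in vehicle tumours (exact permutation p = 0.2). Single-drug groups of pmel-1 recipients were split too, with list means of 6.26 and 8.35 for dabrafenib and 7.82 and 6.31 for trametinib. Skeletal muscle genes, 5 tested, and keratinocyte genes, 2 tested, had no member that passed, with 0 at an adjusted p under 0.05 in limma.

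**Figure D1:**
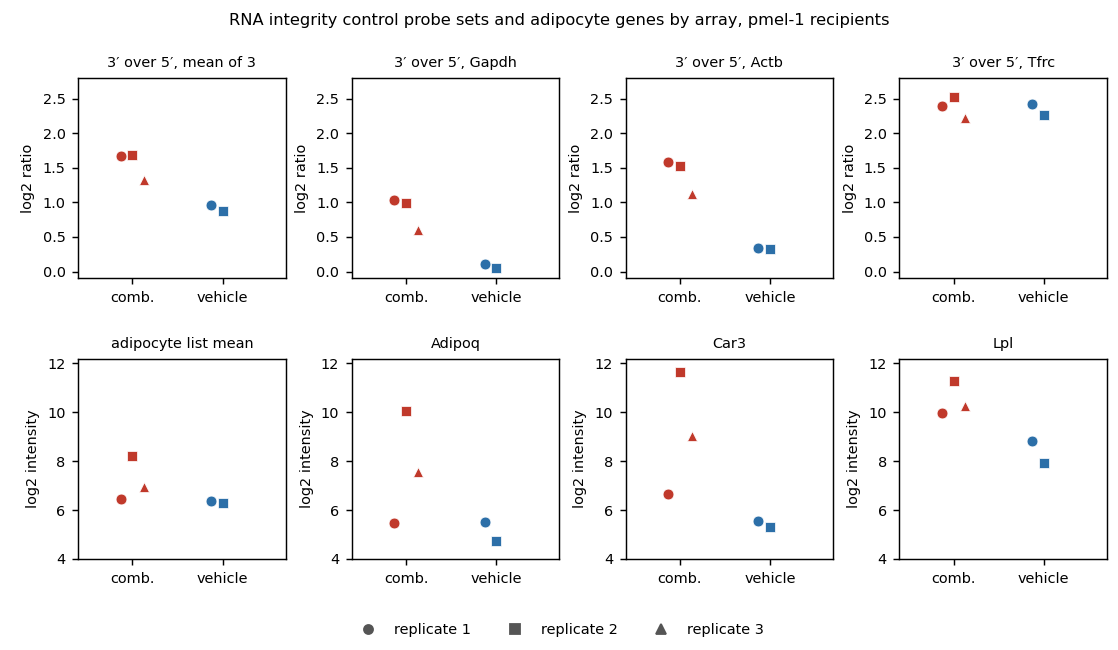
Log2 3′ over 5′ ratios of the control probe sets (top row) and log2 intensities of adipocyte genes (bottom row) by array, in combination tumours (red, left) and vehicle tumours (blue, right) of pmel-1 recipients. The mean ratio lies between 1.32 and 1.68 in combination tumours and at 0.96 and 0.88 in vehicle tumours, and Adipoq is high in combination replicate 2 (10.05) and intermediate in replicate 3 (7.54).

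Between combination and vehicle tumours 6282 genes changed, 45.6% of those tested. Of these 3356 rose (24.3%) and 2926 fell (21.2%), and 1521 changed at least 2-fold, 826 up and 695 down. The median change over all genes was 0.02. Arrays of the 2 groups did not overlap for 8731 genes, 63.3% of those tested, so a lack of overlap alone does not set a gene apart. Arrays correlated across genes at r of 0.988 to 0.992 within the combination, 0.994 within vehicle and 0.925 to 0.947 between the groups; genes are not independent replicates. When the RNA ratio entered the model as a covariate, 2424 genes passed, and 37.4% of the 6282 kept their call and direction. Counts with that covariate stand beside each list whose count they change, and arrays whose omission ended the call of a named gene are given. With combination replicates 2 and 3 both left out, a choice made after seeing the data, 4538 passed. Because so many genes changed, counts of list members are read below against 24.3% up and 21.2% down.

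Of the 15 largest rises, 11 were those of Gbp6, Oasl2, Rtp4, Gbp2, Irgm2, Cxcl9, Igtp, Usp18, Gbp7, Gbp3 and the MHC class II gene H2-Aa, all known as genes that interferons induce, with changes between 3.97 and 5.17. The other 4 were the potassium channel gene Kcnj13 (4.88 ± 0.25), the cation channel gene Trpm1 (3.92 ± 0.27), Tmem140 (3.89 ± 0.32) and Mgll (4.84 ± 0.30), which encodes a lipase for monoacylglycerols. Mgll read 11.55, 12.63 and 11.34 in combination tumours, against 7.10 and 6.90 in vehicle tumours, and of its other 3 probe sets above the filter 2 also rose while the lowest was at 0.06. The 15 largest falls were led by the chromatin protein gene Hmga2 (−4.93 ± 0.32) and held the patterning gene Hoxa11 (−3.92 ± 0.20), the hedgehog ligand gene Dhh (−3.90 ± 0.26), the cartilage genes Hapln1 (−4.19 ± 0.53) and Col2a1 (−3.60 ± 0.40), the integrin gene Itga8 (−3.50 ± 0.23), the milk protein gene Csn3 (−3.50 ± 0.62), the receptor gene Pth2r (−3.50 ± 0.55) and the ETS factor genes Etv4 and Etv5. In the fit that held the RNA ratio, Csn3 (−2.05, adjusted p = 0.12) and Pth2r (−2.31, adjusted p = 0.064) did not pass. In Hapln1, Mal2 (−3.28 ± 0.36) and Lyve1 (−3.17 ± 0.45) every combination array read under 5.79.

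**Figure D2:**
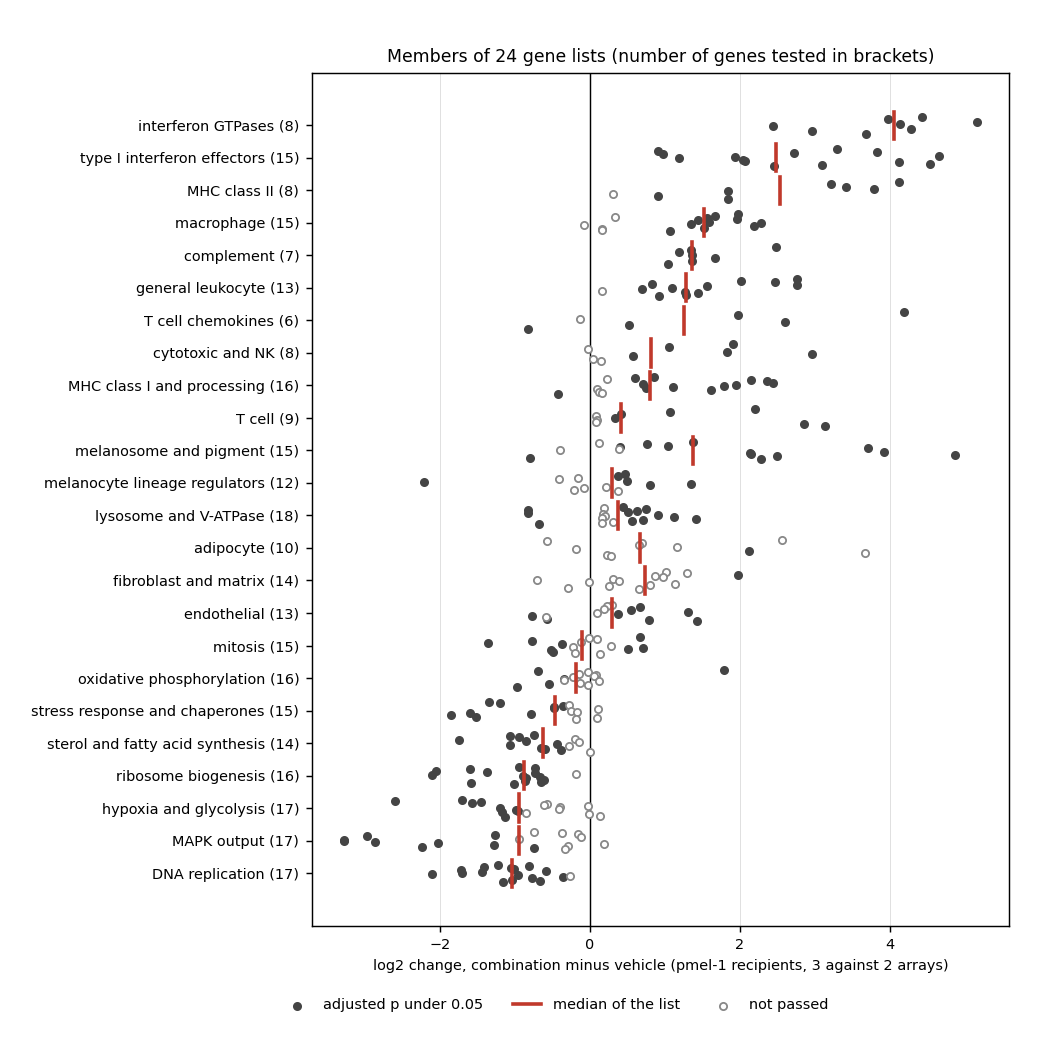
Log2 change, combination minus vehicle, of every tested member of 24 gene lists. Filled circles passed at an adjusted p under 0.05, open circles did not, and the red bar is the median of the list. Interferon and MHC class II lists lie to the right (medians 4.06, 2.48 and 2.53) and the lists of DNA replication (median −1.04), ERK output and ribosome biogenesis to the left.

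Genes that ERK signalling drives were lower in combination tumours. Of 17 tested, 9 fell and 8 did not pass, with a median of −0.95. Etv4, an ETS factor that ERK induces, read 7.03, 6.87 and 7.01 in combination tumours, against 10.24 and 10.27 in vehicle tumours. Its arrays lay within 0.15 of each other in the combination and the groups were far apart (−3.28 ± 0.11, adjusted p = 5.4e-08). Etv5, its close relative, read 8.21, 7.57 and 9.93 in combination tumours, against 11.74 and 11.95 in vehicle tumours. Replicate 3 was the highest of the combination arrays, and the change was less exact (−3.28 ± 1.0, adjusted p = 0.019). The feedback inhibitor Spry4 read 5.95, 6.29 and 7.35 in combination tumours, against 8.95 and 10.04 in vehicle tumours, with replicate 3 again the highest of the 3 (−2.97 ± 0.58). Its relative Spry2 fell too (−1.27 ± 0.35).

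Immediate early genes fell with them, Egr1 by 2.87 ± 0.31 and Fos by 2.03 ± 0.34 on the log2 scale. Egr1 read 7.43, 7.45 and 8.11 in combination tumours, against 10.66 and 10.41 in vehicle tumours. Ier3, an early response gene, changed by −1.28 ± 0.13, the cytokine gene Lif by −0.75 ± 0.12, and Ccnd1, the cyclin D1 gene through which ERK drives entry into S phase, by −2.24 ± 0.37. The phosphatase gene Dusp6, the usual readout of ERK activity, read 11.81, 11.87 and 12.32 in combination tumours, against 12.69 and 12.80 in vehicle tumours. All 3 combination arrays were below both vehicle arrays, but the change of −0.75 ± 0.34 did not pass (adjusted p = 0.096). Its relatives Dusp4 (−0.37 ± 0.32) and Dusp5 (−0.16 ± 0.13) did not pass, and neither did Myc (−0.30 ± 0.24), whose groups overlapped. Etv5 lost its call without combination replicate 1 or 2 or vehicle replicate 1 or 2 (−2.77 to −3.38, adjusted p of 0.051 to 0.093) and Spry2 without vehicle replicate 1 (−1.19, adjusted p = 0.078). Adjusted for the RNA ratio, 5 of the 17 fell, and Etv5 (−0.39, adjusted p = 0.86), Spry4 (−1.11, adjusted p = 0.21), Spry2 (−0.76, adjusted p = 0.39) and Ccnd1 (−1.14, adjusted p = 0.078) did not pass. In control recipients, whose ratios overlapped, 6 of the 17 fell, 1 rose and Etv4 changed by −3.30 ± 0.12.

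Pigment cell genes rose. Of 15 genes of the melanosome and pigment, 11 rose and 1 fell, with a median of 1.37, against a background of 24.3% up and 21.2% down. The start regions of 3 of them are shown because they hold TCATGTG, or CACATGA on the other strand, an E-box that MITF can bind, and include the largest rise of the list. Each window runs from 250 bases before to 50 bases after the start of the gene. The windows are from RefSeq on GRCm38.p6, written 5′ to 3′ on the strand of the gene, with the E-box in capitals. Kcnj13 lies on the minus strand of chr1:87394680-87394979, Trpm1 on the plus strand of chr7:64153585-64153884 and Tyrp1 on the plus strand of chr4:80833963-80834262. Trpm1 has 2 windows in the table, of which 1 held the E-box.
Kcnj13: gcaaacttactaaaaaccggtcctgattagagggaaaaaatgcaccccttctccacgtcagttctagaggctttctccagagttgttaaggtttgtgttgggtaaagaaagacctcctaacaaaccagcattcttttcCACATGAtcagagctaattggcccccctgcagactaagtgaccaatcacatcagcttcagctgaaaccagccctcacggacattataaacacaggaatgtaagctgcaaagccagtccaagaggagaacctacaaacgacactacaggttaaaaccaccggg
Trpm1: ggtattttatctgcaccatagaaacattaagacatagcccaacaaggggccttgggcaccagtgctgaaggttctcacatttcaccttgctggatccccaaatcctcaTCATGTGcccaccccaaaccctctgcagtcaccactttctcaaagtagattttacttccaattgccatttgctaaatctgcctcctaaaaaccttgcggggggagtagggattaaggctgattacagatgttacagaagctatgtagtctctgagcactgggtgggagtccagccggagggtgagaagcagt
Tyrp1: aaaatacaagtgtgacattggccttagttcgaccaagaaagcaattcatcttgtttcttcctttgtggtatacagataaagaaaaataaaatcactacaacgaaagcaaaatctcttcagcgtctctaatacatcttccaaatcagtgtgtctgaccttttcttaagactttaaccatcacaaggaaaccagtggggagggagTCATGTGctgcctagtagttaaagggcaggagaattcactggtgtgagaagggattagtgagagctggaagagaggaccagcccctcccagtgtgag
The E-box starts 112 bases before the start of Kcnj13, 142 before that of Trpm1 and 47 before that of Tyrp1. It was present for 5 of the 10 tested pigment genes that have a window (Dct, Kcnj13, Trpm1, Tyr and Tyrp1), for 0 of 6 interferon-induced GTPase genes and for 4.31% of all 27025 genes with a window. A match is a description of letters and does not show binding.

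Kcnj13, a potassium channel gene, read 11.16, 11.27 and 10.96 in combination tumours, against 6.34 and 6.18 in vehicle tumours. The combination arrays lay well above the filter level and the vehicle arrays just above it (4.88 ± 0.25, adjusted p = 5.8e-07). Trpm1, a channel of melanocytes and retina, read 11.96, 12.15 and 12.48 in combination tumours, against 8.0 and 8.55 in vehicle tumours, and its other 3 probe sets above the filter also rose. Gpr143, a receptor of the melanosome membrane, read 11.10, 11.70 and 11.44 in combination tumours, against 7.53 and 7.89 in vehicle tumours (3.71 ± 0.26). These 3 were the largest rises of the list, and in each every combination array was above every vehicle array. The groups did not overlap, in either direction, for 63.3% of all genes tested.

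The genes for melanosome transport rose together. Rab27a, Mlph and Myo5a encode the GTPase, adaptor and motor that carry melanosomes along actin, and they changed by 2.13 ± 0.16, 2.49 ± 0.24 and 2.28 ± 0.14. Rab38, which sorts enzymes to the melanosome, changed by 2.15 ± 0.14. Mreg, which acts in the same transport, went the other way and fell (−0.79 ± 0.15).

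Among the melanocyte proteins that T cells recognise, the genes Pmel, Tyr, Dct and Mlana were already bright in vehicle tumours, and Tyrp1 was not. Pmel, the source of the antigen that pmel-1 T cells recognise, read 13.93, 14.16 and 14.11 in combination tumours, against 12.82 and 12.56 in vehicle tumours. It rose by 1.37 ± 0.14 without overlap, and in control recipients by 1.53 ± 0.15. Tyr, the enzyme of the first step of melanin synthesis, rose by 0.76 ± 0.09 and Dct by 0.40 ± 0.08. Tyrp1 read 6.18, 6.37 and 5.82 in combination tumours, against 4.96 and 5.21 in vehicle tumours, where it was not well above background (1.04 ± 0.20). Mlana, the gene of the antigen MART-1, read 12.95, 13.19 and 13.22 in combination tumours, against 12.93 and 13.06 in vehicle tumours, and did not pass (0.13 ± 0.13). In the fit that held the RNA ratio, 10 pigment genes rose, and Tyrp1 (0.56, adjusted p = 0.17) and Dct (0.39, adjusted p = 0.067) did not pass.

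Of 12 regulators of the melanocyte lineage 5 rose and 1 fell, with a median of 0.29 (2 up and 1 down with the RNA ratio in the model). Mitf, the lineage's main transcription factor gene, read 13.36, 13.47 and 13.49 in combination tumours, against 12.91 and 13.04 in vehicle tumours. The rise was small beside that of the pigment genes (0.47 ± 0.09), and it was 0.05, adjusted p = 0.73 when all probe sets of the gene were averaged. Sox10, which acts above Mitf, changed by 0.37 ± 0.09, and by 0.05, adjusted p = 0.87 with all probe sets averaged, and it lost its call without vehicle replicate 1 (0.32, adjusted p = 0.072) and with the ratio as a covariate (0.42, adjusted p = 0.071). Ednrb, the endothelin receptor gene of melanoblasts, rose by 1.34 ± 0.12, and Mc1r, the melanocortin receptor gene, by 0.80 ± 0.17 (0.40, adjusted p = 0.27 with the RNA ratio in the model). Pax3 rose by 0.49 ± 0.16, but another of its probe sets was called the opposite way, and it lost its call without combination replicate 2 or 3 or vehicle replicate 1 or 2 (0.40 to 0.54, adjusted p of 0.065 to 0.14) and with that covariate (0.31, adjusted p = 0.46). Kit, the receptor of stem cell factor, fell: it read 7.25, 7.12 and 7.64 in combination tumours, against 9.42 and 9.66 in vehicle tumours (−2.21 ± 0.29). Axl and Ngfr, which mark a dedifferentiated melanoma state in human tumours, did not pass (−0.21 ± 0.17 and 0.37 ± 0.46).

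**Figure D3:**
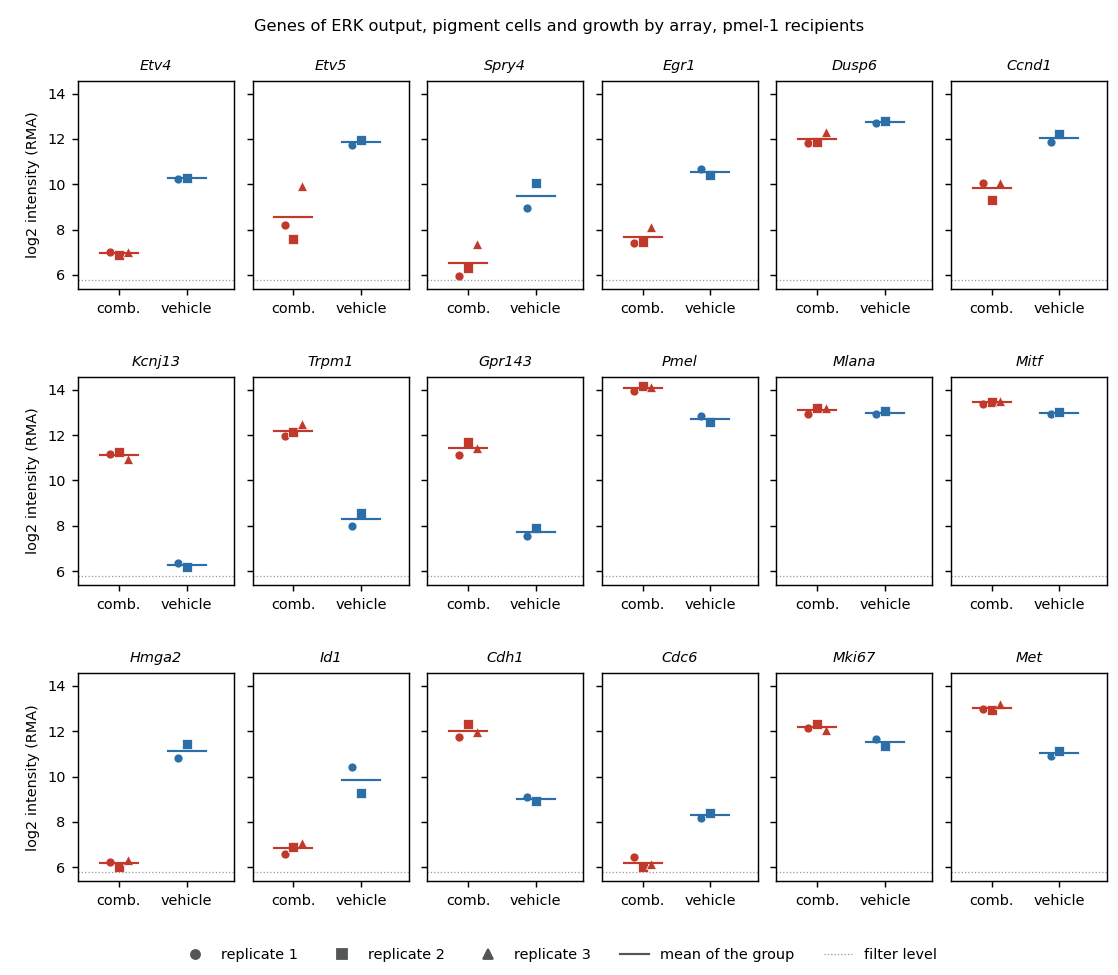
Log2 intensities of genes of ERK output (top row), pigment cells (middle row) and growth or lineage (bottom row) by array, in combination tumours (red, left) and vehicle tumours (blue, right) of pmel-1 recipients. Lines are group means and the dotted line is the filter level of 5.79. Etv4 and Hmga2 are low and Kcnj13, Trpm1 and Cdh1 high on all 3 combination arrays, while the groups overlap for Mlana.

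Some genes of embryonic growth and of BMP signalling were lower. Hmga2, a chromatin protein gene silent in most adult tissue, read 6.22, 6.02 and 6.30 in combination tumours, against 10.80 and 11.43 in vehicle tumours, the largest fall among all called genes (−4.93 ± 0.32, adjusted p = 2.7e-06). Igf2bp3, an RNA-binding protein gene of the fetus, fell by 2.26 ± 0.12, and all of its other 5 probe sets above the filter fell too. Id1 and Id3, inhibitors of basic helix-loop-helix factors that BMP signals induce, changed by −3.0 ± 0.30 and −3.02 ± 0.24. Id1 read 6.57, 6.90 and 7.09 in combination tumours, against 10.42 and 9.29 in vehicle tumours. The inhibitory Smad7 fell as well (−1.01 ± 0.18, and −0.63, adjusted p = 0.11 with the RNA ratio in the model), while Id2 (−0.25 ± 0.30) and Id4 (−1.01 ± 0.40) did not pass.

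Cadherins moved in opposite directions. Cdh1, the gene of E-cadherin, which joins melanocytes to keratinocytes, read 11.74, 12.31 and 11.95 in combination tumours, against 9.09 and 8.92 in vehicle tumours (3.0 ± 0.30). Cdh2, the gene of N-cadherin, read 9.41, 9.21 and 9.54 in combination tumours, against 10.88 and 10.97 in vehicle tumours (−1.54 ± 0.17). Both pairs of groups were far apart. Of the transcription factors that repress Cdh1, Snai1 changed by −1.11 ± 0.16 with every combination array under 5.79, and Twist1 by −1.33 ± 0.26 (−0.44, adjusted p = 0.16 with the ratio as a covariate). Zeb1 (−0.22 ± 0.10), Zeb2 (0.50 ± 0.20) and Snai2 (0.86 ± 0.43) did not pass. Of 13 genes in this list 1 rose and 3 fell (1 up and 2 down with the RNA ratio in the model), near the background shares or below them.

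Some genes of Schwann cells and of the Wnt pathway passed, where 45.6% of all genes tested did. Of 7 Schwann and glial genes 3 rose, the myelin genes Mbp (1.67 ± 0.17) and Cnp (1.07 ± 0.13) and the calcium binding gene S100b (1.46 ± 0.14), which melanocytes also express. Gjc3, a gap junction gene, fell (−0.78 ± 0.16), but another of its probe sets was called the opposite way and the mean of its probe sets was −0.02, adjusted p = 0.94. With the RNA ratio in the model 3 of the 7 rose and 0 fell. Of 8 Wnt pathway genes 3 rose and 1 fell (2 up and 1 down with the RNA ratio in the model). Axin2, a feedback target of beta-catenin, read 9.28, 9.44 and 9.31 in combination tumours, against 7.98 and 7.75 in vehicle tumours (1.48 ± 0.20). The ligand gene Wnt4 read 7.27, 6.62 and 6.75 in combination tumours, against 9.40 and 9.34 in vehicle tumours (−2.49 ± 0.27). The secreted Wnt regulators Dkk3 and Sfrp1 changed by 0.72 ± 0.12 and 1.84 ± 0.47, and Sfrp1 did not pass with the ratio as a covariate (0.73, adjusted p = 0.48) or without vehicle replicate 1 (1.72, adjusted p = 0.06).

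Of 17 receptor tyrosine kinase genes 4 rose and 4 fell, near the background shares of 24.3% up and 21.2% down. Met, the receptor of hepatocyte growth factor and an MITF target, read 12.98, 12.95 and 13.19 in combination tumours, against 10.92 and 11.13 in vehicle tumours (2.01 ± 0.16). Ntrk3 (1.64 ± 0.20) and Tyro3 (0.90 ± 0.13) rose, and Mertk (0.36 ± 0.13) lost its call without combination replicate 2 or 3 or vehicle replicate 1 (0.18 to 0.38, adjusted p of 0.074 to 0.41). Igf1r, the receptor of insulin-like growth factor 1, read 8.32, 8.21 and 8.39 in combination tumours, against 10.08 and 10.36 in vehicle tumours (−1.91 ± 0.23). Fgfr1 (−0.98 ± 0.15) and Fgfr3 (−0.59 ± 0.12) fell with it and with Kit. Egfr (0.11 ± 0.10), Erbb3 (−0.11 ± 0.11) and Pdgfrb (0.39 ± 0.35), receptors that have been described to carry resistance to BRAF inhibitors, did not pass.

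DNA replication genes fell almost as one. Of 17 tested, 16 fell, 0 rose and Rrm2 did not pass (−0.26 ± 0.16), with a median of −1.04. Cdc6, which loads the replicative helicase, read 6.46, 6.0 and 6.13 in combination tumours, against 8.19 and 8.41 in vehicle tumours (−2.10 ± 0.18). The helicase subunit genes Mcm2 to Mcm7 fell between 0.59 ± 0.11 and 1.72 ± 0.14 on the log2 scale, without overlap in any. Over all genes tested, 63.3% had no overlap. The S-phase cyclin genes Ccne1 and Ccne2 changed by −1.44 ± 0.14 and −1.70 ± 0.16, and the clamp gene Pcna by −1.23 ± 0.15. In control recipients 17 of 17 fell, and with the RNA ratio in the model 14 of 17 fell.

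Mitotic genes did not follow. Of 15 tested 3 rose and 5 fell, with a median of −0.11, against 24.3% up and 21.2% down over all genes. Adjusted for the RNA ratio, 0 rose and 2 fell. Mki67, the proliferation marker Ki-67, read 12.15, 12.34 and 12.04 in combination tumours, against 11.66 and 11.36 in vehicle tumours. It was higher on every combination array (0.67 ± 0.17), but did not pass with the ratio as a covariate (0.37, adjusted p = 0.34) or without vehicle replicate 2 (0.51, adjusted p = 0.079). Aurkb, a kinase of chromosome segregation, fell by 1.36 ± 0.20, and Cdk1, which drives entry into mitosis, by 0.78 ± 0.12. Top2a (−0.01 ± 0.11), Birc5 (0.13 ± 0.18) and Plk1 (−0.23 ± 0.16) did not pass.

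Of 12 genes of G1 control 1 rose and 4 fell (0 up and 2 down with the RNA ratio in the model). Beside Ccnd1, the CDK inhibitor genes Cdkn2b (−1.53 ± 0.27) and Cdkn1c (−1.25 ± 0.22) fell. Cdkn2b did not pass with the ratio as a covariate (−1.09, adjusted p = 0.096). The kinase gene Cdk4 (−0.31 ± 0.10) and the retinoblastoma gene Rb1 (0.61 ± 0.16) passed narrowly, and neither did so with that covariate. Cdk4 lost its call without combination replicate 1 or 2 or vehicle replicate 1 or 2 (−0.28 to −0.32, adjusted p of 0.051 to 0.092) and Rb1 without vehicle replicate 2 (0.54, adjusted p = 0.07).

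Ribosome biogenesis genes fell. Of 16 tested 15 fell and 0 rose, with a median of −0.88. Nolc1, a nucleolar chaperone gene, read 7.88, 8.04 and 8.46 in combination tumours, against 10.22 and 10.25 in vehicle tumours (−2.11 ± 0.22). Fbl, the methyltransferase that modifies ribosomal RNA, changed by −1.37 ± 0.14, Nop56, its partner, by −1.60 ± 0.12, and Polr1a, the largest subunit of RNA polymerase I, by −0.94 ± 0.10. Npm1 did not pass (−0.18 ± 0.10). In control recipients 14 fell, and with the RNA ratio in the model 9 fell.

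Metabolic genes moved by pathway. Of 17 genes of hypoxia and glycolysis 9 fell and 0 rose, with a median of −0.95. Slc2a1, the main glucose transporter gene, read 10.62, 10.54 and 10.67 in combination tumours, against 12.35 and 12.29 in vehicle tumours (−1.71 ± 0.30). Egln3, an oxygen sensor gene that HIF induces, changed by −2.60 ± 0.25 and Hk2, which traps glucose, by −1.57 ± 0.26. Ldha, lactate dehydrogenase, changed by −0.98 ± 0.29 and lost its call without combination replicate 2 or vehicle replicate 1 or 2 (−0.92 to −0.98, adjusted p of 0.051 to 0.083). With the ratio as a covariate 1 of the 17 fell, Egln3 (−1.94, adjusted p = 0.0025), and Slc2a1 (−0.95, adjusted p = 0.11) and Hk2 (−0.85, adjusted p = 0.07) did not pass. In control recipients 9 fell and 1 rose.

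Ppargc1a, the coactivator gene of mitochondrial biogenesis and an MITF target, read 10.28, 9.97 and 10.41 in combination tumours, against 8.77 and 8.08 in vehicle tumours. It rose (1.80 ± 0.23), as did all of its other 4 probe sets. Of the 16 genes of oxidative phosphorylation that include it, no other rose and 6 fell, with a median of −0.18. Adjusted for the RNA ratio, Ppargc1a still rose and 0 fell in limma. The mitochondrial transcription factor gene Tfam changed by −0.70 ± 0.12 (−0.54, adjusted p = 0.07 with the ratio as a covariate). Subunit genes such as Cox4i1 (0.13 ± 0.08), Ndufs1 (−0.02 ± 0.10) and Sdha (0.06 ± 0.09) did not pass.

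Of 14 genes of sterol and fatty acid synthesis 10 fell and 0 rose, with a median of −0.63. Fdps, which makes farnesyl pyrophosphate, read 8.98, 8.62 and 9.22 in combination tumours, against 10.77 and 10.60 in vehicle tumours (−1.75 ± 0.23). Lss (−1.06 ± 0.14), Idi1 (−0.95 ± 0.17) and Dhcr7 (−0.65 ± 0.13) of the same pathway fell. With the ratio as a covariate 4 of the 14 fell, and in control recipients 11 fell. Of 18 genes of the lysosome and its proton pump 9 rose and 3 fell, with a median of 0.38 (8 up and 0 down with the RNA ratio in the model). The channel gene Mcoln1 read 11.22, 11.41 and 11.06 in combination tumours, against 9.83 and 9.81 in vehicle tumours (1.41 ± 0.15), and the progranulin gene Grn (1.13 ± 0.11), the hexosaminidase gene Hexa (0.91 ± 0.09) and Tfeb, the regulator of lysosomal genes (0.71 ± 0.10), rose too. The cathepsin gene Ctsl (−0.83 ± 0.14), the pump subunit gene Atp6v1h (−0.67 ± 0.13) and Gla (−0.82 ± 0.21) fell, and none of these 3 passed with the ratio as a covariate. Gla also lost its call without vehicle replicate 1 (−0.73, adjusted p = 0.07).

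Of 11 apoptosis regulators 4 rose and 3 fell (0 up and 2 down with the RNA ratio in the model). The sensitiser gene Bik (−1.48 ± 0.20) and the survival gene Bcl2l1 (−0.72 ± 0.14) fell. Bmf, a BH3-only gene described to respond to ERK inhibition, rose (0.90 ± 0.21) but did not pass with the ratio as a covariate (0.49, adjusted p = 0.31), and Bcl2l11, the BIM gene, did not pass (0.30 ± 0.14). Of 15 stress response and chaperone genes 9 fell and 0 rose, with a median of −0.47, and 2 fell with the RNA ratio in the model. Asns, which makes asparagine and is induced by ATF4, read 8.70, 8.93 and 8.88 in combination tumours, against 10.61 and 10.77 in vehicle tumours (−1.85 ± 0.22). Hspa1a, an inducible HSP70 gene, read 8.18, 8.32 and 8.58 in combination tumours, against 10.62 and 8.80 in vehicle tumours. Its size depended on vehicle replicate 1, with a change of −1.35 ± 0.46 over all arrays and −0.44, adjusted p = 0.46 without that one. The call was lost with that covariate (−0.56, adjusted p = 0.65) and without combination replicate 1 or 2 or vehicle replicate 1 (−0.44 to −1.33, adjusted p of 0.072 to 0.46). Of 8 housekeeping genes 4 fell (1 with the RNA ratio in the model), among them Hprt (−0.95 ± 0.10), so a fixed reference gene cannot be assumed. Actb, one of the genes whose 3′ over 5′ ratio differed, changed by −0.50 ± 0.14, and lost its call with the ratio as a covariate (−0.09, adjusted p = 0.76) and without vehicle replicate 1 or 2 (−0.47 to −0.53, adjusted p of 0.057 to 0.083).

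The interferon-induced GTPases rose most of all lists. Of 8 tested, 8 rose, with a median of 4.06. They act against intracellular microbes, and interferon gamma induces them. The 3 shown here carry GAAA, any 2 bases and GAAA again, or TTTC, any 2 bases and TTTC on the other strand, the core of an interferon response element. The windows are from RefSeq on GRCm38.p6 and on the plus strand of chr3:142620413-142620712 for Gbp2, chr11:58199306-58199605 for Igtp and chr11:58214727-58215026 for Irgm2, with the element in capitals.
Gbp2: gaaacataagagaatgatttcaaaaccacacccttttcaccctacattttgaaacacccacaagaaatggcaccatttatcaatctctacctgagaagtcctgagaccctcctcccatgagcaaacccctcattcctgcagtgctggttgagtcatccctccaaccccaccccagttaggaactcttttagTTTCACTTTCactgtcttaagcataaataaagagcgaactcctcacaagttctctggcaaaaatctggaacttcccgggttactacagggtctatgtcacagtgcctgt
Igtp: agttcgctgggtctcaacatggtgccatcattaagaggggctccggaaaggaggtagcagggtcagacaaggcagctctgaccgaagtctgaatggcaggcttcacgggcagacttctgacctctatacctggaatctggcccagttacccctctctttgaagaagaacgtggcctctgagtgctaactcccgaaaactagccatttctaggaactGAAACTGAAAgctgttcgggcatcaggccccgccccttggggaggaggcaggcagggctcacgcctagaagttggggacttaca
Irgm2: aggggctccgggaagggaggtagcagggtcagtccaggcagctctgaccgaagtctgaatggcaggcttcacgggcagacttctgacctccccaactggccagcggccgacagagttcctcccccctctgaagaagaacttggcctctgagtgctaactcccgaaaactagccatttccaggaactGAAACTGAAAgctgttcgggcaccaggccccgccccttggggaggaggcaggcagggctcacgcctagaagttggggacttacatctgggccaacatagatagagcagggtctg
The element starts 59 bases before the start of Gbp2, 34 before that of Igtp and 64 before that of Irgm2. It was present for 5 of the 6 tested GTPase genes that have a window, for 6 of 10 type I interferon effector genes, for 0 of 10 pigment genes and for 3.99% of all 27025 genes with a window. The windows of Igtp and Irgm2, close paralogs on the same chromosome, share most of their letters, so they are not independent cases.

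Gbp6 read 11.04, 11.99 and 10.91 in combination tumours, against 6.06 and 6.23 in vehicle tumours, the largest rise among all called genes (5.17 ± 0.47, adjusted p = 1.5e-05). Gbp2 read 10.72, 12.11 and 11.12 in combination tumours, against 6.89 and 6.88 in vehicle tumours (4.43 ± 0.44). Igtp read 11.38, 12.27 and 11.80 in combination tumours, against 7.75 and 7.60 in vehicle tumours (4.14 ± 0.30). Combination replicate 2, the array highest in adipose genes, was also the highest for these genes, and the other 2 combination arrays were still far above both vehicle arrays. Irgm2 changed by 4.28 ± 0.30, Iigp1 by 3.69 ± 0.29, Ifi47 by 2.96 ± 0.29 and Irgm1 by 2.45 ± 0.26. All 8 rose with the RNA ratio in the model and with combination replicates 2 and 3 left out.

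Genes that type I interferon induces rose as well, 15 of 15 tested, with a median of 2.48. Rtp4 read 11.09, 11.71 and 11.23 in combination tumours, against 6.99 and 6.61 in vehicle tumours (4.54 ± 0.23). Usp18, which removes ISG15 from proteins, read 9.20, 9.90 and 8.87 in combination tumours, against 5.17 and 5.21 in vehicle tumours, where it was not well above background (4.13 ± 0.29). Ifit3 changed by 3.83 ± 0.37, and Oas1a, an RNA sensor gene, by 2.73 ± 0.21. Bst2, which tethers virions, read 12.65, 13.11 and 12.33 in combination tumours, against 10.20 and 10.28 in vehicle tumours (2.45 ± 0.21). The smallest rises were those of Ifit2 (0.90 ± 0.14) and Oasl1 (0.97 ± 0.22), and Oasl1 did not pass with the ratio as a covariate (0.46, adjusted p = 0.32), nor did Mx1 (1.22, adjusted p = 0.12).

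Of 13 genes of interferon receptors and signalling 6 rose and 3 fell, with a median of 0.27 (5 up and 1 down with the RNA ratio in the model). Among the rises were the transcription factor genes Irf7 (2.39 ± 0.27), Irf1 (2.13 ± 0.29), Irf9 (1.95 ± 0.17) and Stat2 (1.51 ± 0.18). Irf1 read 11.04, 11.72 and 10.94 in combination tumours, against 9.19 and 9.01 in vehicle tumours. The receptor genes Ifngr1 (0.12 ± 0.09), Ifnar1 (0.27 ± 0.13) and Ifnar2 (0.17 ± 0.12) did not pass. Socs3 (−1.13 ± 0.32), Jak1 (−0.55 ± 0.19) and Ifngr2 (−0.53 ± 0.19) fell. Socs3 lost its call without vehicle replicate 1 (−0.61, adjusted p = 0.2). Jak1 lost its call without combination replicate 1 or 2 or vehicle replicate 1 or 2 (−0.42 to −0.66, adjusted p of 0.055 to 0.21) and with the ratio as a covariate (−0.01, adjusted p = 0.99), and Ifngr2 without combination replicate 1, 2 or 3 or vehicle replicate 2 (−0.33 to −0.58, adjusted p of 0.053 to 0.32) and with that covariate (−0.05, adjusted p = 0.93).

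Of 5 genes of ISG15 conjugation 4 rose, led by Usp18 and the ligase gene Trim25 (2.25 ± 0.18), and 2 rose with the RNA ratio in the model. Of 12 genes that sense nucleic acids or form inflammasomes 7 rose, with a median of 0.60 (5 with the RNA ratio in the model). Dhx58 (1.91 ± 0.22), a regulator of RIG-I, and Tlr3 (1.44 ± 0.12), a sensor of double-stranded RNA, were among them, while Cgas (0.18 ± 0.14) and Sting1 (−0.32 ± 0.17), the sensor and adaptor of cytosolic DNA, did not pass. Complement genes rose, 7 of 7 tested, with a median of 1.36. C2 read 10.70, 10.78 and 10.42 in combination tumours, against 8.11 and 8.19 in vehicle tumours (2.49 ± 0.18), and Cfb, the factor of the alternative pathway, changed by 1.35 ± 0.18. With the ratio as a covariate 2 of these 7 passed.

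**Figure D4:**
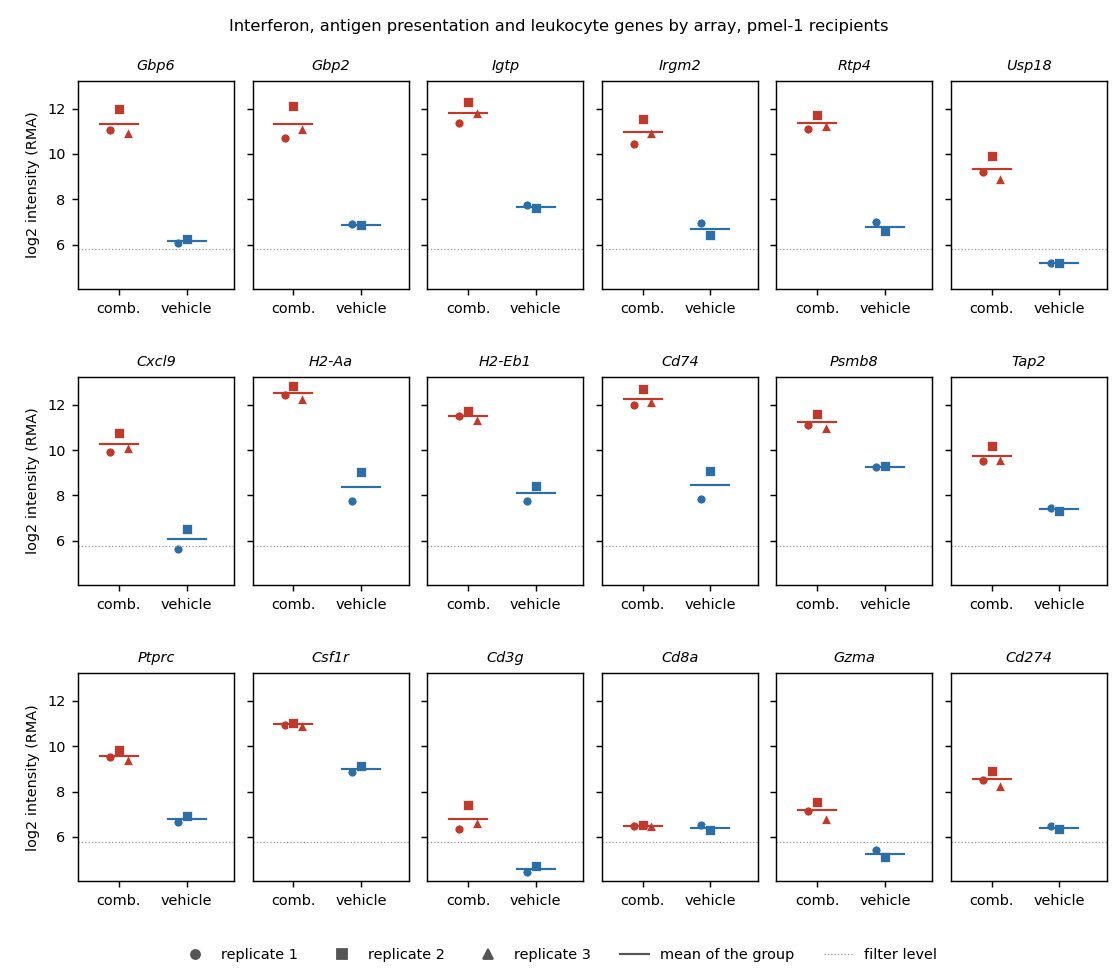
Log2 intensities of interferon genes (top row), antigen presentation and chemokine genes (middle row) and leukocyte genes (bottom row) by array, in combination tumours (red, left) and vehicle tumours (blue, right) of pmel-1 recipients. Lines are group means and the dotted line is the filter level of 5.79. All panels but Cd8a show every combination array above every vehicle array, and combination replicate 2 (squares) is the highest combination array in most. The groups do not overlap, in either direction, for 63.3% of all genes tested.

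Chemokines that draw T cells were led by Cxcl9, a ligand of CXCR3 that interferon gamma induces. It read 9.93, 10.77 and 10.10 in combination tumours, against 5.64 and 6.50 in vehicle tumours (4.19 ± 0.31, adjusted p = 4.4e-06). Cxcl10, another ligand, read 10.07, 11.12 and 10.12 in combination tumours, against 8.75 and 8.16 in vehicle tumours (1.98 ± 0.41), and did not pass with the ratio as a covariate (1.60, adjusted p = 0.12). Ccl5, a chemokine that draws T cells, read 10.52, 11.02 and 9.92 in combination tumours, against 7.87 and 7.91 in vehicle tumours (2.60 ± 0.28). Of the 6 genes tested 4 rose and 1 fell, with a median of 1.25 (2 up and 0 down with the RNA ratio in the model). The gene that fell was Cxcr3, the receptor itself (−0.83 ± 0.28). It lost its call with the ratio as a covariate (−0.03, adjusted p = 0.97) and without combination replicate 1 or 2 or vehicle replicate 1 or 2 (−0.71 to −0.95, adjusted p of 0.061 to 0.17). Of 12 myeloid chemokine and growth factor genes 3 rose, Ccl8 (2.02 ± 0.28), Ccl4 (0.63 ± 0.17) and Csf1 (0.53 ± 0.11). Ccl4 lost its call without vehicle replicate 2 (0.59, adjusted p = 0.071), Ccl4 and Csf1 lost theirs with the ratio as a covariate, and Ccl2, which draws monocytes, did not pass (0.17 ± 0.20).

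MHC class II genes, which present antigen to CD4 T cells, rose in 7 of 8 tested, with a median of 2.53. H2-Aa read 12.41, 12.81 and 12.26 in combination tumours, against 7.73 and 9.02 in vehicle tumours (4.12 ± 0.37), and its other 3 probe sets above the filter rose too. H2-Eb1 read 11.50, 11.73 and 11.31 in combination tumours, against 7.75 and 8.43 in vehicle tumours (3.42 ± 0.26). Vehicle replicate 2 was the higher vehicle array for both, and no vehicle array reached a combination array. Cd74, the invariant chain, changed by 3.79 ± 0.34, H2-DMa, which loads peptide, by 1.84 ± 0.21, and Ciita, the master regulator of the class, by 0.91 ± 0.13. Adjusted for the RNA ratio, 7 of the 8 rose.

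Genes that present antigen to CD8 T cells rose in 11 of 16 tested and fell in 1, with a median of 0.80. The class I heavy chains were bright in both groups: H2-K1 changed by 0.86 ± 0.08 and H2-D1 by 0.61 ± 0.09, while the light chain gene B2m did not pass (0.23 ± 0.10). The peptide-supplying genes changed more. Psmb8, an immunoproteasome subunit, read 11.11, 11.57 and 10.99 in combination tumours, against 9.25 and 9.28 in vehicle tumours (1.95 ± 0.18). Tap1, a peptide transporter, changed by 2.15 ± 0.26, Tap2 by 2.37 ± 0.26 and the loading factor Tapbp by 2.45 ± 0.18. Nlrc5, the regulator of class I genes, read 10.81, 11.41 and 10.82 in combination tumours, against 9.35 and 9.45 in vehicle tumours (1.62 ± 0.24). The gene that fell was the chaperone Pdia3 (−0.43 ± 0.14), which lost its call with the ratio as a covariate (−0.01, adjusted p = 0.98) and without combination replicate 1 or 2 or vehicle replicate 1 or 2 (−0.35 to −0.46, adjusted p of 0.075 to 0.14). With that covariate 9 rose and 0 fell.

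T cell genes were higher but low in level. In bulk tumours, more cells of a type and more RNA of a gene per cell cannot be told apart. Of 9 T cell genes 6 rose and 0 fell, with a median of 0.41. Cd3g, which encodes the gamma chain of CD3, read 6.35, 7.42 and 6.59 in combination tumours, against 4.46 and 4.70 in vehicle tumours, where it was not well above background (2.21 ± 0.25). Trbv1, a receptor beta chain segment, read 8.61, 9.54 and 8.53 in combination tumours, against 5.85 and 6.22 in vehicle tumours (2.86 ± 0.30). Ms4a4b, a membrane gene of T cells, changed by 3.14 ± 0.33 from a vehicle level under 5.79 on both arrays. Cd8a, the coreceptor gene of the pmel-1 T cells, read 6.46, 6.52 and 6.49 in combination tumours, against 6.52 and 6.29 in vehicle tumours. Its groups overlapped on the brightest probe set (0.08 ± 0.10), and the mean of its probe sets gave 0.58, adjusted p = 0.0026. Cd3e (0.41 ± 0.14) and Cd4 (0.34 ± 0.11) passed narrowly. Cd3e lost its call without combination replicate 1 or 2 or vehicle replicate 1 or 2 (0.32 to 0.45, adjusted p of 0.071 to 0.15) and Cd4 without combination replicate 1 or vehicle replicate 1 (0.22 to 0.25, adjusted p of 0.079 to 0.25), and neither passed with the ratio as a covariate.

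Of 8 cytotoxic and NK cell genes 5 rose and 0 fell, with a median of 0.82. Both vehicle arrays read under 5.79 for 5 of the 8, which passed the filter through other arrays, so the count favours rises. Without the filter 8 of 12 rose, with a median of 0.80. Klrd1, the CD94 receptor gene, read 7.78, 8.42 and 7.26 in combination tumours, against 4.60 and 5.11 in vehicle tumours (2.97 ± 0.33). Gzma, a granule protease, read 7.16, 7.55 and 6.80 in combination tumours, against 5.41 and 5.10 in vehicle tumours (1.91 ± 0.21). For these and for Gzmb (1.05 ± 0.28) and Klrk1 (0.58 ± 0.16) every vehicle array was under 5.79, so the sizes are not exact. Gzmb lost its call without vehicle replicate 1 (0.96, adjusted p = 0.079) and Klrk1 without vehicle replicate 2 (0.47, adjusted p = 0.097), and both lost it with the ratio as a covariate (0.91, adjusted p = 0.21 and 0.63, adjusted p = 0.12). Nkg7, a granule membrane gene, rose (1.83 ± 0.22). Prf1, perforin (−0.02 ± 0.13), Ncr1, a marker of NK cells (0.04 ± 0.12), and Eomes (0.15 ± 0.21) did not pass. In the fit that held the RNA ratio, 4 of the 9 T cell genes and 3 of these 8 rose.

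Cd274, the gene of the checkpoint ligand PD-L1, read 8.51, 8.92 and 8.24 in combination tumours, against 6.48 and 6.35 in vehicle tumours (2.14 ± 0.26). Lgals9, a ligand of TIM-3, changed by 1.50 ± 0.23. Of 8 checkpoint and costimulator genes 4 rose (2 with the RNA ratio in the model), and the T cell receptors Lag3 (0.26 ± 0.17), Icos (−0.14 ± 0.15) and Tnfrsf9 (0.05 ± 0.11) did not pass. Of 3 genes of regulatory T cells tested 1 rose, Ikzf2 (1.62 ± 0.20). Foxp3, Il2ra and Ccr8 did not pass the filter, so Ikzf2 alone does not measure these cells. Ikzf2 read 9.71, 10.12 and 9.68 in combination tumours, against 8.19 and 8.24 in vehicle tumours, and it also rose in control recipients (1.29 ± 0.22).

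Leukocyte and macrophage genes were clearly higher. Of 13 general leukocyte genes 12 rose, with a median of 1.28, and Vav1 did not pass (0.16 ± 0.18). Ptprc, the CD45 gene, read 9.51, 9.83 and 9.37 in combination tumours, against 6.67 and 6.94 in vehicle tumours (2.77 ± 0.25). Cd52 changed by 2.77 ± 0.21 and Coro1a, an actin regulator of leukocytes, by 2.01 ± 0.21. Of 15 macrophage genes 11 rose and 0 fell, with a median of 1.52. Csf1r, the receptor on which macrophages depend, read 10.95, 11.02 and 10.90 in combination tumours, against 8.85 and 9.12 in vehicle tumours (1.97 ± 0.29). Mpeg1 changed by 2.18 ± 0.24, Aif1 by 2.29 ± 0.30 and C1qc by 1.44 ± 0.21, while Cd68 (0.34 ± 0.13) and Cd14 (−0.08 ± 0.20) did not pass. Adjusted for the RNA ratio, 8 leukocyte genes and 7 macrophage genes rose. The adipocyte list was also higher on combination replicates 2 and 3, and the part of adipose-resident macrophages in these counts was not tested.

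Markers of macrophage states did not move with that rise. Of 10 tested 1 rose and 3 fell (0 up and 1 down with the RNA ratio in the model). Lyve1, a receptor of lymphatic vessels and of perivascular macrophages, read 3.93, 3.84 and 5.26 in combination tumours, against 7.30 and 7.73 in vehicle tumours, so every combination array was under 5.79 (−3.17 ± 0.45). Mrc1 (−0.01 ± 0.29), Arg1 (−0.59 ± 0.42), Chil3 (−0.31 ± 0.28) and Nos2 (−0.11 ± 0.13) did not pass. Vegfa, the vascular growth factor gene, changed by −1.31 ± 0.30, and by −0.53, adjusted p = 0.39 with the ratio as a covariate. For other leukocytes few genes were tested, and over all genes tested 24.3% rose. Of 6 dendritic cell genes 2 rose, Itgax (1.53 ± 0.22), which macrophages share, and Cd83 (1.19 ± 0.32), while Flt3 (−0.05 ± 0.09), Zbtb46 (−0.04 ± 0.16) and Batf3 (−0.02 ± 0.19), which define the conventional subset, did not pass. Cd83 lost its call without vehicle replicate 2 (0.93, adjusted p = 0.11) and with the ratio as a covariate (0.36, adjusted p = 0.6). Of 4 B cell genes 1 rose, Cd22 (0.40 ± 0.11), which lost its call without vehicle replicate 1 or 2 (0.37 to 0.42, adjusted p of 0.051 to 0.074), and Cd79a did not pass (0.07 ± 0.11). Of 2 neutrophil genes tested Trem1 rose (0.63 ± 0.12), while S100a8, S100a9, Cxcr2, Mpo and Elane did not pass the filter. Neither Cd22 nor Trem1 passed with the ratio as a covariate. Of 2 eosinophil and mast cell genes 0 passed in limma.

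Stromal lists differed from each other and are read against 24.3% up and 21.2% down over all genes tested. Of 14 fibroblast and matrix genes 1 rose, Col1a1, with a median of 0.73 and wide spread. It read 10.38, 11.14 and 11.14 in combination tumours, against 9.30 and 8.52 in vehicle tumours (1.98 ± 0.70), and lost its call without combination replicate 2 or 3 or vehicle replicate 1 or 2 (1.59 to 2.36, adjusted p of 0.072 to 0.21) and with the ratio as a covariate (0.83, adjusted p = 0.65). A fit of the 5 arrays alone called 7 of the 14 higher and 1 lower. Of 13 endothelial genes 6 rose and 2 fell. Vwf (1.31 ± 0.27) and the adhesion gene Icam1 (0.79 ± 0.16), which interferon also induces, were among the rises, Cldn5 (−0.77 ± 0.25) was among the falls, and Pecam1 did not pass (0.30 ± 0.17). Cldn5 lost its call without combination replicate 1 or vehicle replicate 1 or 2 (−0.61 to −0.84, adjusted p of 0.078 to 0.14). With the ratio as a covariate 0 endothelial genes passed in limma. Both of 2 erythroid genes fell, Alas2, which starts haem synthesis in red cell precursors (−2.36 ± 0.47), and Slc4a1, the anion exchanger of red cells (−0.61 ± 0.17). Slc4a1 lost its call without vehicle replicate 1 (−0.43, adjusted p = 0.15). Alas2 read 5.85, 6.21 and 5.86 in combination tumours, against 8.80 and 7.88 in vehicle tumours. Hba-a1 and Epb42 of the same list did not pass the filter, so erythroid RNA as a whole was not measured.

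The same 2 drugs in control recipients show which of these changes were also measured without pmel-1 cells. There 4874 genes changed, 35.4% of those tested, with 18.7% up and 16.7% down, over other arrays. Some tumour genes changed in both. Kcnj13 changed by 4.88 ± 0.25 in pmel-1 recipients and by 4.51 ± 0.27 in control recipients, Hmga2 by −4.93 ± 0.32 and −4.93 ± 0.35, and Cdh1 by 3.0 ± 0.30 and 3.63 ± 0.33. In control recipients 11 pigment genes rose and 14 ribosome biogenesis genes fell. Of the immune lists, 0 of 9 T cell genes and 0 of 8 cytotoxic genes passed there in limma, with medians of −0.07 and 0.02. Cd3g, Trbv1, Ms4a4b, Klrd1 and Gzma read under 5.79 on all control arrays, so a change there could go unseen. Of the 8 GTPases 3 rose, of the 15 type I interferon genes 11, of the 8 MHC class II genes 3 and of the 15 macrophage genes 10.

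The difference between the 2 effects was tested directly. Of 13783 genes 39 passed, 0.283%, of which 32 (0.232%) had the more positive change in pmel-1 recipients and 7 (0.0508%) the more negative one. At an unadjusted p under 0.05 limma gave 2204. Cxcl9 had the smallest p: it read 4.10 and 4.54 in control recipients given the combination, against 4.33 and 4.27 in control recipients given vehicle, all under 5.79, and the change was more positive by 4.17 ± 0.45 in pmel-1 recipients (adjusted p = 0.022), a size that is not exact at such levels. H2-Eb1 read 8.04 and 8.49 in control recipients given the combination, against 7.44 and 7.78 in control recipients given vehicle, a difference in effect of 2.76 ± 0.38. Psmb8 read 8.67 and 8.66 against 8.48 and 8.83 in the same groups, a difference in effect of 1.94 ± 0.26. Between combination and vehicle in control recipients, H2-Eb1 differed by 0.66 ± 0.28 and Psmb8 by 0.01 ± 0.19, and neither passed there.

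By list the genes with a more positive change in pmel-1 recipients were 4 of 8 GTPases, 2 of 15 type I interferon genes, 3 of 8 MHC class II genes, 4 of 16 class I and processing genes, 3 of 9 T cell genes, 3 of 8 cytotoxic genes and 2 of 13 leukocyte genes. Among them were Igtp (3.11 ± 0.44), Ms4a4b (3.32 ± 0.49), Klrd1 (2.85 ± 0.48) and Ptprc (2.16 ± 0.36). Ms4a4b, Trbv1, Cd3g, Klrd1 and Gzma read under 5.79 on all control arrays. They passed the filter through pmel-1 arrays, so the T cell and cytotoxic counts favour a more positive change. Among tumour lists none of the 17 ERK output genes, 15 pigment genes, 17 replication genes or 16 ribosome biogenesis genes passed this test, which does not show that their effects were equal. The difference was 0.37 ± 0.37 for Kcnj13 and 0.02 ± 0.17 for Etv4. The 7 more negative ones were Serpinb1a (−1.50 ± 0.18), Gjc3 (−1.74 ± 0.23), Ubl3 (−1.12 ± 0.18), Qpct (−1.68 ± 0.28), Zc3h6 (−1.60 ± 0.27), the cathepsin gene Ctsk (−1.02 ± 0.17) and Snapin (−1.0 ± 0.17). The RNA ratio was high in pmel-1 combination tumours but not in control combination tumours. With that ratio as a covariate 0 genes passed, its part in the 39 was not tested further, and leaving out single arrays gave 0 to 33 genes. Counts of 0 came without pmel-1 vehicle replicate 1, control combination replicate 2 or 3, or control vehicle replicate 3, and counts of 11, 19, 5 and 25 without pmel-1 combination replicate 1, pmel-1 combination replicate 2, pmel-1 vehicle replicate 2 and control vehicle replicate 1.

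**Figure D5:**
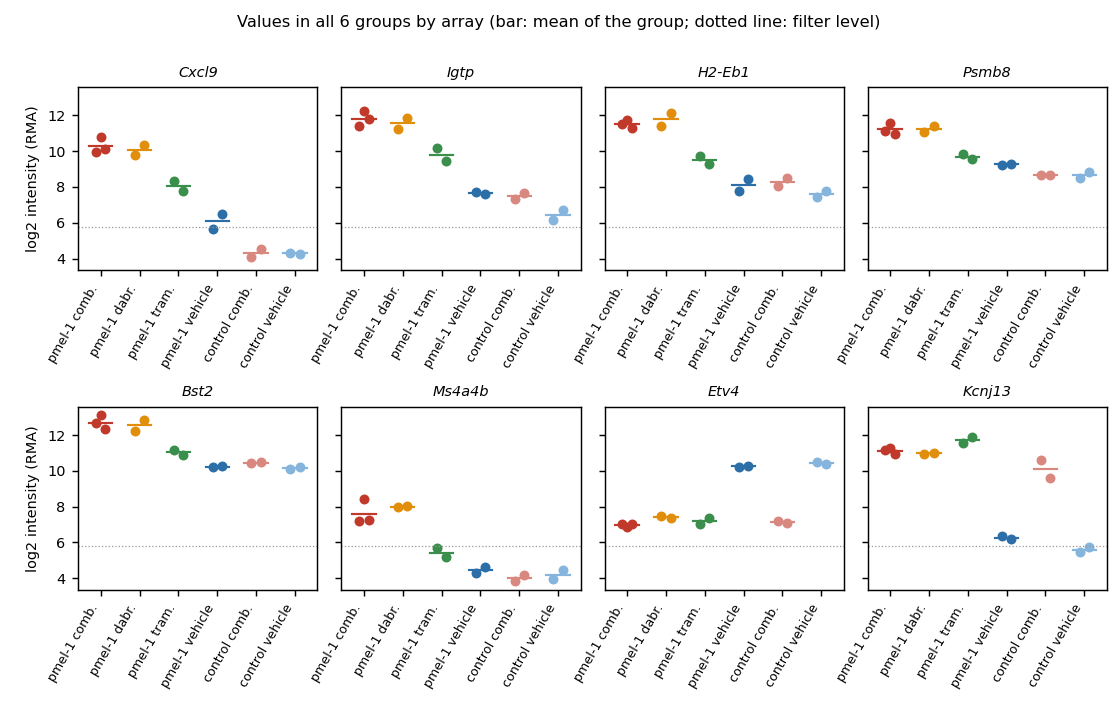
Log2 intensities of 8 genes on all 13 arrays in 6 groups, with the pmel-1 combination group at the left and control vehicle at the right. Bars are group means and the dotted line is the filter level of 5.79. Immune genes are high in the combination and dabrafenib groups of pmel-1 recipients and lower with trametinib, while Etv4 is low and Kcnj13 high in every drug group of either recipient.

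In pmel-1 recipients the combination was also set against each drug alone. Against dabrafenib 0 genes passed in limma (0.00% of 13783), with 246 at an unadjusted p under 0.05. The difference between combination and dabrafenib was 0.20 ± 0.31 for Cxcl9, 0.44 ± 0.44 for Gbp2, −0.27 ± 0.26 for H2-Eb1 and 0.15 ± 0.25 for Kcnj13, and a p that misses the threshold does not show that the drugs act alike. Against trametinib 151 genes passed (1.10%), 118 higher (0.856%) and 33 lower (0.239%) with the combination. All 8 GTPases, 5 MHC class II genes, 5 class I genes, 9 leukocyte genes, 5 macrophage genes, 3 T cell genes and 3 cytotoxic genes were among those higher. Gbp2 read 10.72, 12.11 and 11.12 with the combination, against 9.46 and 8.43 with trametinib (2.37 ± 0.44). Ms4a4b read 7.17, 8.43 and 7.25 with the combination, against 5.68 and 5.16 with trametinib (2.20 ± 0.33). No ERK output, pigment, replication or ribosome biogenesis gene passed against trametinib. The lower genes included Wfdc3 (−1.77 ± 0.32), the tight junction gene Cldn5 (−1.53 ± 0.25), the stress factor gene Atf3 (−1.22 ± 0.22) and the syndecan gene Sdc1 (−1.01 ± 0.18).

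With 2 trametinib arrays these counts were unstable. Without trametinib replicate 2 none passed, and without replicate 1 28 passed. Without combination replicates 1, 2 and 3 the counts were 63, 42 and 102. The fit that held the RNA ratio called 306, and all 151 were among them. Dabrafenib and trametinib tumours were compared with the same vehicle arrays as the combination, so their effects are not independent of the one described here. With dabrafenib 5709 genes passed against vehicle (41.4%), 21.9% up and 19.6% down. With trametinib 5323 passed (38.6%), 19.5% up and 19.1% down. For Pmel the changes from vehicle were 1.37 ± 0.14 with the combination, 1.37 ± 0.15 with dabrafenib and 1.38 ± 0.15 with trametinib.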

How the data were processed

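Affymetrix GeneChip mouse arrays measured RNA of SM1 tumours on 13 arrays. The authors deposited log2 values per probe set, made by RMA with the affy package per the submitters' processing notes; RMA corrects background, quantile-normalises between arrays and summarises probes. The sources used here name no genome build and no RNA amplification method. The values of each array have the same distribution apart from gaps of up to 0.21 on the log2 scale, and precision is limited by how few arrays there are.

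The arrays hold 45101 probe sets, of which 64 are controls and 34945 had 1 gene symbol in the platform annotation. The brightest probe set stood for each of 18193 symbols, and 13783 above 5.79 (the 40th percentile of all values) on at least 2 arrays were tested. The list members not analysed here were absent from that set: 485 of 608 list places were tested. Group means over all 13 arrays were fitted with limma 3.58.1 in R 4.3.3 (7 residual degrees of freedom), with p-values adjusted by Benjamini-Hochberg over 13783 genes. Simulated data had 200 changed genes, independent noise per gene and no difference in RNA ratio or adipose RNA. Shares recovered there may not hold for these arrays. In that simulation the comparison of combination with vehicle recovered 94.0% of 2-fold and 99.0% of 4-fold changes with 4.5% false calls. The test between recipients recovered 70.0% and 97.0% with 5.1% false calls, the test against dabrafenib 93.0% and 100.0% with 4.5%, and the test against trametinib 91.0% and 100.0% with 6.4%. Of 3216 called genes with other probe sets above the filter, 1762 had another called the same way and 325 another called the opposite way. Single values were compared by 2-sided exact permutation over 10 arrangements of 5 arrays.

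Members and lists were chosen with earlier results of these data known, so list counts are descriptions. Named genes are the 15 largest rises and falls without overlap (RIKEN, Gm and LOC symbols left out), the first and up to 8 members of smallest p per list with any opposite member, up to 10 genes each way for the test between recipients, and up to 8 each way against a single drug. Other list members, and the genes of the closing observations, were named after their values were seen. Alternatives changed the arrays fitted, the filter, the probe set rule, the normalisation, the variance model, a replicate block and covariates for the 3′ over 5′ ratio and adipose RNA. The control probe sets gave the 3′ over 5′ ratio. Promoter windows are from RefSeq on GRCm38.p6.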

Additional observations from a re-analysis of the deposited data

Results flagged for a closer look

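The results below are those of named genes for which the effect of the combination differed between pmel-1 and control recipients in limma's test of the difference itself (adjusted p under 0.05 over 13783 genes). Each value is a log2 difference of differences, pmel-1 minus control. Cxcl9, Ms4a4b, Klrd1, Trbv1, Cd3g and Gzma were under 5.79 on all control arrays, so the sizes of theirs are not exact. The value was 4.17 for the chemokine gene Cxcl9. Among interferon-induced genes it was 3.99 for Gbp6, 3.11 for Igtp, 2.93 for Ifi47, 2.84 for Iigp1, 2.18 for Bst2 and 1.82 for Oas1a. Among antigen presentation genes it was 2.76 for H2-Eb1, 1.79 for H2-DMa, 2.35 for Tap1, 2.31 for Nlrc5 and 1.94 for Psmb8. Among leukocyte genes it was 3.32 for Ms4a4b, 2.85 for Klrd1, 2.79 for Trbv1, 2.30 for Cd3g, 2.16 for Ptprc, 1.87 for Nkg7, 1.85 for Gzma and 1.79 for Cd52. All of these genes rose in pmel-1 recipients.

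The difference was negative for Gjc3 (−1.74), Qpct (−1.68), Zc3h6 (−1.60), Serpinb1a (−1.50), Ubl3 (−1.12), Ctsk (−1.02) and Snapin (−1.0). Gjc3 read 7.77, 8.20 and 8.17 in combination tumours, against 8.84 and 8.82 in vehicle tumours of pmel-1 recipients, and 8.97 and 9.19 in combination tumours, against 8.15 and 8.10 in vehicle tumours of control recipients. Its direction thus turned between recipients on this probe set.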

How the results depend on the processing

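Against 6282 genes changed between combination and vehicle, the count was 2424 with the RNA ratio (3′ over 5′ control probe sets) in the model and 2432 with the adipocyte list mean added to it. That ratio differed between the groups, so its part and that of the drugs cannot be told apart. Other settings gave 4538 to 6693 genes. Leaving out 1 array gave 4506 to 5943. None of the 6282 changed sign when 1 array was left out, but 204 did with all probe sets averaged and 34 with the ratio in the model. The 39 genes of the test between recipients became 0 with the ratio in the model, 4 with both covariates, 0 without combination replicates 2 and 3, and 1 with a replicate block. They became 90 in a fit of the arrays compared, 71 with the adipocyte list mean, 67 with median centring and 65 with array weights, and 0 to 33 with 1 array left out. The 151 genes that differed from trametinib became 12 with a replicate block, 306 with the ratio, 377 with the adipocyte list mean, 367 with both, 286 with array weights, 0 without combination replicates 2 and 3, and 0 to 102 with 1 array left out. Against dabrafenib the count was 0 in each setting run. The difference in the mean 3′ over 5′ ratio, 0.64, was 0.79 for Gapdh, 1.09 for Actb, and 0.58 to 0.76 with 1 array left out. With all probe sets averaged Pax3 turned to −0.16 and Bcl2l11 to −0.25, and with both covariates Cxcr3 turned to 0.04, Jak1 to 0.04 and Pdia3 to 0.03. The cause of these changes was not tested. Settings with 2 arrays left out or both covariates were chosen after seeing the data. Same-numbered arrays of the 2 groups correlated at −0.05 and −0.10 in their deviations, and the replicate block gave 5579 genes. The deviations of 2 vehicle arrays mirror each other, so these values cannot show whether replicate numbers pair the arrays. Genes near background, such as the cytotoxic genes, have no exact fold.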

Other observations

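For some genes the changes in the 2 kinds of recipient had unlike sizes, but the test of the difference did not pass. These genes were picked after their values were seen. With the RNA ratio as a covariate 0 of 13783 genes passed that test. Irf8, a transcription factor gene of myeloid cells that interferon gamma induces and that some melanomas express, read 8.83, 9.78 and 9.39 in combination tumours, against 9.33 and 10.34 in vehicle tumours of pmel-1 recipients. In control recipients it read 7.62 and 6.77 in combination tumours, against 10.48 and 10.47 in vehicle tumours, and fell there (−3.28 ± 0.37). The difference between the effects was 2.77 ± 0.50 (adjusted p = 0.055). Erap1, which trims peptides for class I molecules, changed by 0.09 ± 0.16 in pmel-1 recipients and by −1.20 ± 0.18 in control recipients, a difference of 1.29 ± 0.24 (adjusted p = 0.066). Lyve1, low with the combination in pmel-1 recipients, changed by 0.23 ± 0.50 in control recipients, a difference of −3.40 ± 0.67 (adjusted p = 0.07).

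Gsdme, the gene of a pore-forming protein that caspase 3 can cleave, was among the 15 largest falls. It read 7.29, 6.71 and 7.37 in combination tumours, against 10.38 and 10.42 in vehicle tumours (−3.28 ± 0.27), and it fell in control recipients too (−1.92 ± 0.30). Fam184b and Lmcd1, a LIM domain gene, fell by 3.33 ± 0.40 and 3.17 ± 0.41 on the log2 scale in pmel-1 recipients, and changed by −3.61 ± 0.44 and −2.46 ± 0.45 in control recipients.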
